A study of Mus musculus with 6 samples.

Results

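The genes described here encode SNARE proteins and the factors that take SNARE complexes apart. Members were chosen by gene symbol: Vamp, Stx (syntaxin), Snap23, Snap25, Snap29, Snap47, Sec22, Vti1, Bet1 and Gosr genes, Ykt6, the soluble attachment proteins Napa, Napb and Napg, and Nsf. Earlier results of these data were known when the members were chosen. Both count tables held 37 of them, and 42 were found in at least 1 table: 38 of the 14165 genes listed for pooled oocytes and 41 of the 54658 listed for single oocytes. Vamp7 had a value for the pools only, and Vamp2, Vamp5 and the pseudogene Vamp7-ps, among others, had one for single oocytes only.

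All samples were mouse eggs halted at metaphase II (MII) until fertilisation. Their polyadenylated RNA was amplified with Smart-seq2, which copies whole transcripts. Of the pools, each of 10 young oocytes, 2 received control siRNA (siCtrl; titled WT) and 2 received siRNA against Plat (siPlat; titled KD). The remaining samples were untreated single oocytes: 1 sample of 59 from aged mice and 1 sample of 35 from young mice, each oocyte being its own library. The labels used here name no animals for any sample. P-values therefore measure the spread between the pools alone, which may be technical.

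A SNARE protein carries a coiled-coil motif. Motifs on a vesicle zip together with motifs on the target membrane, and the resulting bundle pulls the membranes into fusion. By the residue at the centre of the bundle, SNAREs are classed as R, mostly vesicle proteins such as the VAMPs, and Qa, Qb and Qc, such as the syntaxins; SNAP25-type proteins supply both Qb and Qc. After fusion the ATPase NSF, recruited by SNAP adaptors, separates the bundle for reuse. In the egg this machinery drives the release of cortical granules, whose contents alter the zona pellucida after fertilisation.

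The pools held 12142884 to 17475952 gene counts. Plat, the target of the siRNA, was at 441 and 439 CPM (gene counts scaled to a common library total, after TMM) in siCtrl and at 51.4 and 39.0 CPM in siPlat. Single oocytes held 2018226 to 11894782 gene counts. Of the aged libraries, 21 of 59 had more than 5% of their gene counts from mitochondrially encoded genes, against 0 of 35 young ones. Between 7385 and 13849 genes were detected in each of these, and between 14724 and 17623 in the other 38. Oocyte markers summed to 862 to 5228 CPM in those 21 libraries, 24780.4 to 37819 CPM in the other 38 and 26835 to 37313 CPM in the young. Markers of cumulus and granulosa summed to 0.232 to 63.6 CPM in the 21 (Amh, Foxl2, Fshr, Ptx3 and Cyp11a1 at 0). In the other 38 they summed to 48.3 to 109 CPM (Ptx3 at 0). In young oocytes it was 58.2 to 116 CPM (Amh, Foxl2 and Fshr at 0). Stroma markers summed to 0 to 45.5, 75.1 to 178 and 102 to 234 CPM in the same order. Blood and immune markers summed to 0 to 130 CPM in the 21, with a median of 1.64 CPM. Their sums were 4.22 to 19.0 CPM (median 10.1) in the other 38 and 4.74 to 21.2 CPM (median 12.4) in the young. The main age results are therefore given with and without the 21 libraries. Other ways of scaling and averaging, ERCC spike-ins among them, keep all aged oocytes. In the pools, oocyte markers summed to 29762 to 30849 CPM in siCtrl against 27187 to 29511 CPM in siPlat, cumulus and granulosa markers to 42.3 to 49.9 and 40.2 to 56.0 CPM, blood and immune markers to 8.12 to 8.41 and 4.08 to 4.999 CPM, and stroma markers to 27.5 to 28.8 and 20.5 CPM. Of these lists 12 of 13, 6 of 12, 2 of 8 and 5 of 8 genes were in the table, and edgeR called 4 of 12 tested oocyte markers, all lower in siPlat (Gdf9, Zp1, Mos and H1f8; 1.41% of all genes were called lower), and 0 of the others. The part of these markers in the results was not tested. In pools, fewer cells of a type and less RNA per cell cannot be told apart.

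Per length, the members of young oocytes spanned a wide range. Levels were divided by the length of the merged exons of GENCODE M21 (GRCm38). Stx12, a syntaxin of recycling endosomes, stood at 65.1 CPM per kb, followed by Nsf at 49.6, Vamp3 at 26.2, Gosr2 of the Golgi at 24.5, Bet1 at 20.8, Snap23 at 18.6 and Sec22b at 16.1 CPM per kb. Among SNAREs known best from neurons, Snap25 was at 0.0102 and Vamp1 at 0.112 CPM per kb, while the syntaxin Stx1a was at 1.71 CPM per kb (4.56 CPM) with a count in 34 of 35 young oocytes. Vamp2 had 26 counts in all over 35 young and 71 over 59 aged oocytes. After thinning each oocyte to 2000000 gene counts, Vamp2 was seen in 4 of 35 young oocytes (11.4%, exact binomial interval 3.20 to 26.7%). In aged oocytes it was 14 of 59 (23.7%, 13.6 to 36.6%). Without thinning these were 9 and 23. Of the 38 aged libraries of at most 5% mitochondrial share, 12 had it after thinning (31.6%, 17.5 to 48.7%) and 19 without. Of the 21 above that share, 2 had it after thinning and 4 without. Vamp5 had 8 counts at each age. Among plasma membrane syntaxins, Stx2 was the only one above 5 CPM in young oocytes, at 49.4 CPM (10.8 per kb), and Stx4a stood at 0.870 CPM (0.368 per kb).

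**Figure D1:**
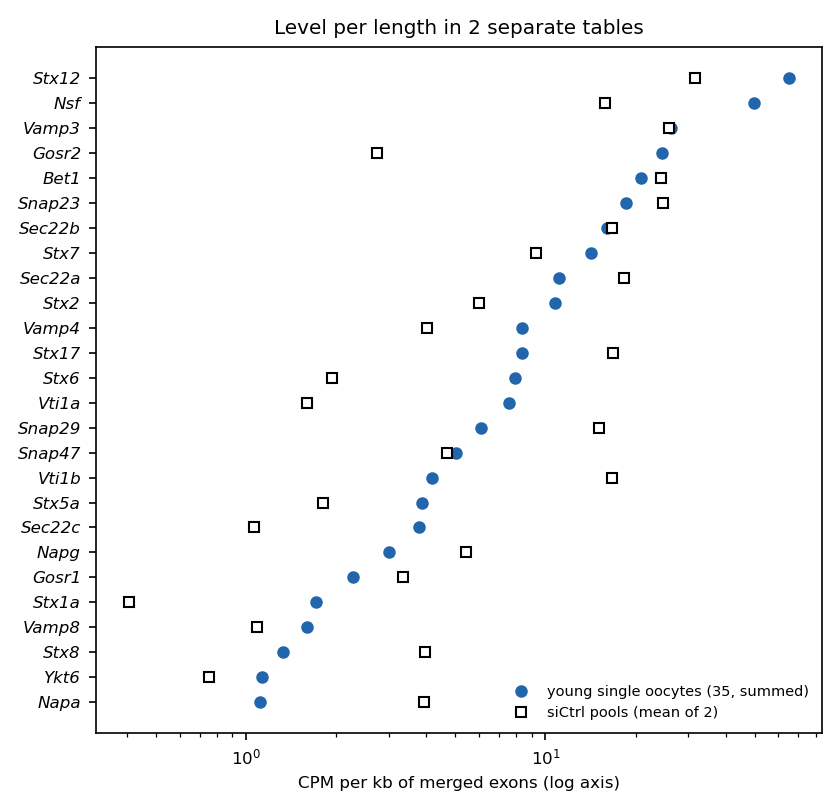
Level per length (CPM per kb of merged exons, log axis) of the 26 members at or above 1 CPM per kb in young single oocytes. Filled circles are the 35 young oocytes summed and open squares the mean of the 2 siCtrl pools, which come from a separate table; Vamp3 and Sec22b nearly coincide, while Gosr2, Vti1a and Stx6 lie lower in the pools and Vti1b higher.

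In the siPlat pools, Vamp3 fell and Vti1a rose, and the other 31 of the 33 members that passed the expression filter did not pass the test. That is 2 of 33 (6.06%), against 3.54% of all 11136 tested genes by edgeR's quasi-likelihood test at an adjusted p under 0.05 (1.41% called lower and 2.13% higher), a share near the background. The median log2 fold change was 0.22 for the members and -0.03 for all tested genes. At an unadjusted p under 0.05 it was 11 of 33 members and 18.8% of all genes. By limma-voom the same 2 members were called, against 3.72% of all genes. Both siPlat pools lay above both siCtrl pools for 14 members and below them for 9, against 23.5% and 25.8% of all tested genes. The 5 members below the filter were Napb, Snap25, Stx11, Stx16 and Stx4a, with 0 to 41 counts per pool.

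Vamp3, or cellubrevin, is the R-SNARE of recycling endosomes and a close relative of the synaptic vesicle protein Vamp2. Its gene lies on chromosome 4 at 151047300 to 151057963 (mm10, minus strand) and shares no exonic base with another annotated gene. It was at 78.1 and 71.0 CPM in siCtrl and at 16.0 and 19.7 CPM in siPlat. The groups were far apart relative to their spread, with means of 74.6 ± 5.03 and 17.9 ± 2.60 CPM (SD, n = 2 per group). This is a 4.17-fold lower level (log2 fold change -2.06, SE 0.21, edgeR adjusted p = 0.000516). Vamp3 was called in all 9 other settings, among them DESeq2, limma-voom and each library left out in turn, with log2 fold changes of -2.20 to -1.92 and adjusted p-values of 1.12e-14 to 0.000752. In untreated young oocytes, a separate table, it was at 75.8 CPM, level with siCtrl.

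The coding sequence of Vamp3 was compared with those of its nearest relatives, since reads of close copies can be split between genes. This covers 312 coding bases of 2889 merged exon bases, and whether reads were shared between these genes was not tested. Vamp3 is identical to Vamp2 at 67.0% and to Vamp1 at 62.1% of aligned coding positions, and the longest run it shares with them is 17 and 12 bases. The stretch with the 17-base run is shown from the GENCODE transcripts, 5′ to 3′, with the shared run in capitals; it covers coding bases 196 to 272 of Vamp2 and 157 to 233 of Vamp3.
Vamp2: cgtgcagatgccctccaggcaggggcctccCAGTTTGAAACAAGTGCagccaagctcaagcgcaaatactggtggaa
Vamp3: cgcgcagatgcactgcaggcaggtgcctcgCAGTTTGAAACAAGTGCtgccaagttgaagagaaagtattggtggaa
On both sides of the run the genes differ at several positions. Of the 5 tested genes within 500000 bases of Vamp3, edgeR called 0, near the share of 3.54% of all genes. Their log2 fold changes were -0.50 to 0.29 (lowest edgeR adjusted p = 0.142). Among them is Camta1, whose span on the same strand contains Vamp3 (-0.23, SE 0.18, edgeR adjusted p = 0.529). A local cause was not tested.

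The other vesicle R-SNAREs did not pass. Vamp7, which serves late endosomes and lysosomes and resists tetanus toxin, stood at 194 and 167 CPM in siCtrl against 283 and 183 CPM in siPlat. The siPlat 2 value lay between the siCtrl values, so the groups overlapped (log2 fold change 0.37, SE 0.21, edgeR adjusted p = 0.385). Without siPlat 2 Vamp7 was called (0.66, edgeR adjusted p = 0.0111; highest over all settings 0.981). Vamp8, or endobrevin, was at 2.46 and 2.54 CPM in siCtrl against 5.95 and 3.53 CPM in siPlat (0.92, SE 0.46). Vamp1 was at 1.68 and 2.26 CPM in siCtrl and at 0.862 and 0.864 CPM in siPlat (-1.18, SE 0.76). Both are low, and their adjusted p-values by edgeR were 0.319 and 0.446. With Vamp3 lower and Vamp7 uneven, the 4 exocytic R-SNARE genes together made 276 and 243 CPM in siCtrl against 306 and 207 CPM in siPlat.

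**Figure D2:**
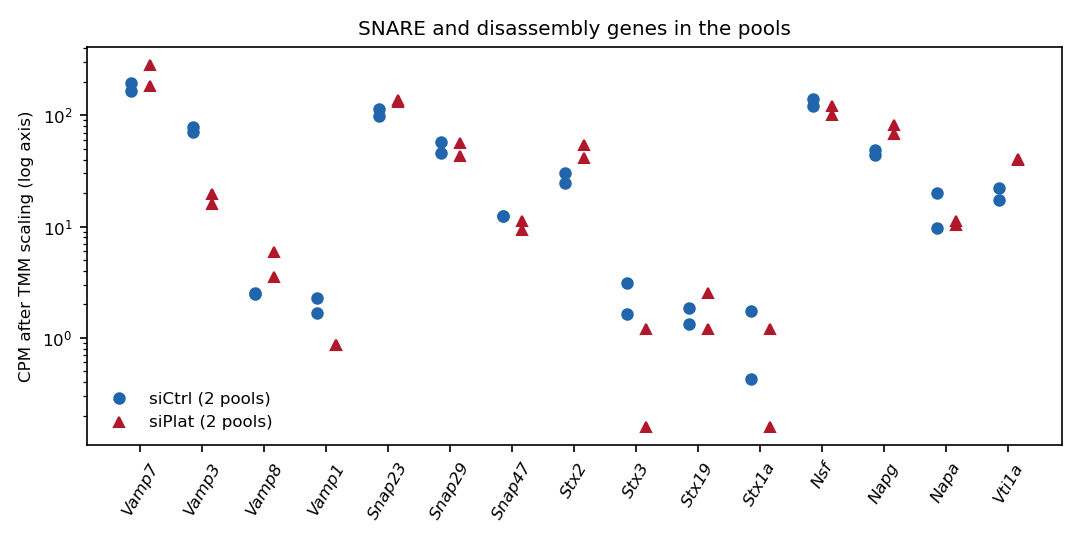
CPM after TMM scaling (log axis) of 15 genes in the 2 siCtrl pools (circles) and 2 siPlat pools (triangles): exocytic R-SNAREs, SNAP25-type genes, plasma membrane syntaxins, disassembly factors and Vti1a. Vamp3 is the only one of the 15 called lower, from 78.1 and 71.0 to 16.0 and 19.7 CPM, and Vti1a the only one called higher.

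Of the 7 tested plasma membrane syntaxins and SNAP25-type genes, edgeR called 0, limma-voom 0 and DESeq2 1. Of all genes they called 3.54%, 3.72% and 6.09%. At an unadjusted p under 0.05 by edgeR it was 1 of the 7, against 18.8% of all genes. Snap23, the SNAP25-type protein of non-neuronal cells, was at 114 and 98.7 CPM in siCtrl and at 137 and 131 CPM in siPlat, with no overlap (log2 fold change 0.34, SE 0.17, edgeR adjusted p = 0.319). Snap29, which joins Stx17 in autophagosome fusion, was at 46.3 and 57.9 CPM in siCtrl against 43.4 and 56.8 CPM in siPlat (-0.05, SE 0.21). Snap47, a further SNAP25-type gene, was at 12.5 and 12.4 CPM in siCtrl against 9.39 and 11.2 CPM in siPlat (-0.28, SE 0.28). These 3 genes differed by at most 1.26-fold. Stx2, a plasma membrane syntaxin, was at 24.8 and 30.2 CPM in siCtrl against 41.6 and 53.6 CPM in siPlat. Its groups did not overlap (0.79, SE 0.22, edgeR adjusted p = 0.0748), and it was called by DESeq2 (adjusted p = 0.0294), with no expression filter (edgeR adjusted p = 0.0447) and without siPlat 1 (0.00840), and did not pass in the other 6 settings (highest 0.415). Stx3 was at 1.62 and 3.11 CPM in siCtrl against 1.21 and 0.157 CPM in siPlat (-1.79, SE 0.92), Stx1a at 1.74 and 0.424 against 1.21 and 0.157 CPM (-0.69, SE 1.16), and Stx19 at 1.85 and 1.34 against 1.21 and 2.51 CPM (0.22, SE 0.70). At these levels, with an SE of 0.70 to 1.16 log2 units, a 2-fold difference was not detectable.

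Of 3 tested disassembly factors edgeR called 0, limma-voom 0 and DESeq2 1, against 3.54%, 3.72% and 6.09% of all genes. At an unadjusted p under 0.05 by edgeR it was 1 of the 3, against 18.8% of all genes. Nsf, the ATPase, was at 122 and 141 CPM in siCtrl and at 101 and 120.2 CPM in siPlat (log2 fold change -0.25, SE 0.18, edgeR adjusted p = 0.504), so the groups lay side by side without overlap. Napa, which encodes alpha-SNAP, was at 9.74 and 20.0 CPM in siCtrl against 11.2 and 10.3 CPM in siPlat (-0.46, SE 0.35). Here the siCtrl pools differed more from each other than from siPlat. Napg, which encodes gamma-SNAP, was at 44.0 and 49.0 CPM in siCtrl against 67.6 and 81.4 CPM in siPlat (0.68, SE 0.19, edgeR adjusted p = 0.0805). It was called by DESeq2 (adjusted p = 0.0281) and without siPlat 1 (edgeR adjusted p = 0.0141), and its highest adjusted p over all settings was 0.425. Napb, the neuronal beta-SNAP, had 0 counts in both siCtrl pools and 0 and 10 counts in siPlat.

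Among 8 tested SNAREs of endosomes, trans-Golgi and lysosomes, Vti1a was the single call by edgeR, which called 3.54% of all genes. At an unadjusted p under 0.05 by edgeR it was 4 of the 8, against 18.8% of all genes. Vti1a, a Qb-SNARE of the trans-Golgi network on chromosome 19 (55316295 to 55627309, mm10), was at 22.01 and 17.4 CPM in siCtrl and at 40.4 and 39.7 CPM in siPlat. Both siPlat values lay above both siCtrl values, with means of 40.04 ± 0.536 and 19.7 ± 3.22 CPM (SD, n = 2 each). Vti1a was thus 2.03-fold higher (log2 1.02, SE 0.22, edgeR adjusted p = 0.0283). The call ended without siCtrl 1 (log2 1.201, edgeR adjusted p = 0.0797) and without siCtrl 2 (log2 0.86, edgeR adjusted p = 0.243), and held in 7 of 9 other settings (lowest 0.00325). In young single oocytes Vti1a was at 93.0 CPM, with a lowest oocyte of 69.1 CPM, above all 4 pools; the tables were made separately. The 8 tested members of these compartments had a median log2 fold change of 0.43 and ran from -0.22 for Stx6 to 1.02. Stx7 of late endosomes was at 45.1 and 38.4 CPM in siCtrl and at 69.6 and 58.0 CPM in siPlat (0.61, SE 0.20, edgeR adjusted p = 0.123). The late endosomal Vti1b was at 24.7 and 28.9 CPM in siCtrl and at 37.5 and 40.6 CPM in siPlat (0.54, SE 0.21, edgeR adjusted p = 0.183). Stx12 was at 99.5 and 101.5 CPM in siCtrl and at 138 and 123 CPM in siPlat, without overlap (0.38, SE 0.17, edgeR adjusted p = 0.26). Stx17, the autophagosomal syntaxin, was at 98.8 and 101 CPM in siCtrl and at 84.7 and 111 CPM in siPlat, where the groups overlapped.

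The 10 tested SNAREs of the endoplasmic reticulum and Golgi held 0 calls by edgeR (4 genes had an unadjusted p under 0.05) and 0 by limma-voom. DESeq2 called Bet1 and Stx5a. Of all genes, edgeR called 3.54% (18.8% at an unadjusted p under 0.05), limma-voom 3.72% and DESeq2 6.09%. Their log2 fold changes ran from -0.65 for Gosr1 to 1.002 for Stx5a. Stx5a, the Qa-SNARE of the early Golgi, was at 9.41 and 11.7 CPM in siCtrl and at 18.8 and 23.3 CPM in siPlat (SE 0.27, edgeR adjusted p = 0.0708). Bet1, a Qc-SNARE of vesicles between these compartments, was at 95.8 and 85.2 CPM in siCtrl against 151 and 120.4 CPM in siPlat (0.58, SE 0.18, edgeR adjusted p = 0.113). Bet1l was at 13.1 and 14.6 against 32.1 and 19.0 CPM. Part of its exons overlaps Ric8a on the opposite strand, whose reads cannot be told apart without strand. Its exons also overlap Gm45785 on the same strand, where strand would not separate the reads. Gosr1 was at 15.6 and 13.2 against 13.0 and 5.34 CPM, where siPlat 2 alone was low. Sec22a was at 96.3 and 95.2 CPM against 151 and 117 CPM, Sec22b at 66.6 and 65.9 against 59.1 and 72.6 CPM, and Sec22c at 7.50 and 5.51 against 4.31 and 4.24 CPM. By DESeq2 the called members were 6 of 33, against 6.09% of all tested genes. With no expression filter edgeR called 4 of 38, against 4.13% of all genes. Leaving out siPlat 2 added Bet1, Bet1l, Sec22a, Stx7 and Vamp7 to the 2 called members, in a setting that called 9.66% of all genes. Leaving out siPlat 1 added Gosr1, Napg, Stx2 and Stx5a, where 6% of all genes were called.

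**Figure D3:**
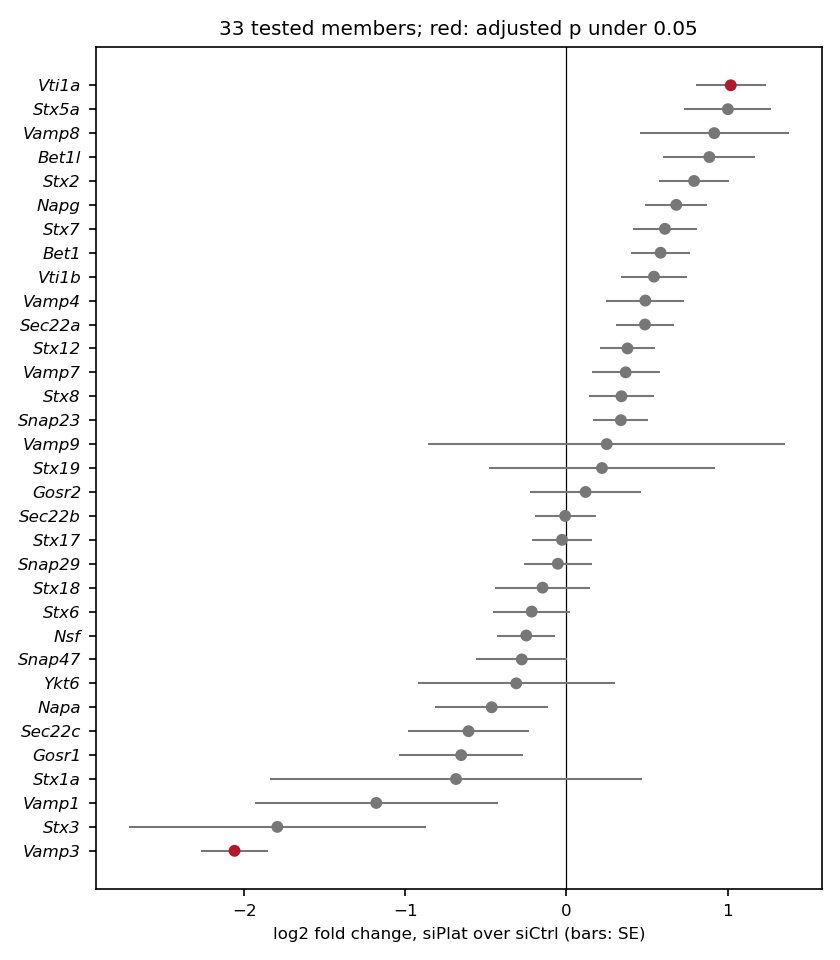
Log2 fold change of siPlat over siCtrl for the 33 tested members, ordered by value, with bars of 1 SE from edgeR. Red points passed an adjusted p under 0.05: Vamp3 at -2.06 and Vti1a at 1.02; bars are widest for the low genes Stx3, Stx1a, Vamp9, Vamp1 and Stx19.

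Genes of proteins that act on or with SNAREs, further SNAREs and genes of cortical granules and the zona were listed in 9 groups from textbook knowledge. Of these, 87 passed the filter. By edgeR 3 fell, 0 rose and 84 did not pass, with a median log2 fold change of -0.17. At an unadjusted p under 0.05 it was 23 of 87, against 18.8% of all genes, and DESeq2 called 9 (all genes 6.09%) and limma-voom 5 (3.72%). The 3 edgeR calls of 87 were near the 3.54% of all genes. Stxbp3, or Munc18c, which binds plasma membrane syntaxins, was the single call among 7 Sec1 and Munc18 proteins. It was at 13.9 and 15.5 CPM in siCtrl and at 5.69 and 5.03 CPM in siPlat (-1.46, SE 0.30, edgeR adjusted p = 0.0262), and the call ended without siCtrl 1 (0.0893) and without siCtrl 2 (0.156). Both siPlat pools lay well below both siCtrl pools. Among 9 genes of cortical granules and the zona, the granule protease Astl and the zona gene Zp1 fell. Astl went from 69.9 and 91.6 CPM in siCtrl to 23.1 and 29.3 CPM in siPlat (-1.62, SE 0.22, edgeR adjusted p = 0.00326). Zp1 went from 129 and 222 CPM to 81.1 and 60.3 CPM (-1.31, SE 0.26, edgeR adjusted p = 0.0258). In this list 6 of 9 had an unadjusted p under 0.05 (all genes 18.8%), and DESeq2 called 5 (all genes 6.09%). Astl held in all 9 other settings, and Zp1 lost its call without siCtrl 2, siPlat 1 or siPlat 2 (edgeR adjusted p of 0.162, 0.161 and 0.249). In the other 7 lists edgeR called 0 and limma-voom 0 genes, with DESeq2 calling 2 priming factors and 1 Golgi tether and 15 genes reaching an unadjusted p under 0.05. The tested genes comprised 14 synaptotagmins and other C2 calcium sensors, 18 Rab GTPases and partners, 7 exocyst subunits, 6 HOPS and CORVET tethers, 15 Golgi and endoplasmic reticulum tethers, 8 priming and clamping factors and 3 SNAREs outside the name rule. Among the priming factors, Unc13c was at 388 and 409 CPM in siCtrl against 609 and 520.1 CPM in siPlat (0.50, SE 0.15, edgeR adjusted p = 0.105).

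With age, on the scale of gene totals, 0 of 23 members were past 2-fold among those averaging at least 5 CPM over the ages, against 3.25% of 8303 genes, and without the 21 libraries of high mitochondrial share again 0 of 23, against 1.84% of 8413 genes. Each age was 1 sample, so there was no test and no replicate check. Log2 ratios were taken of CPM plus 1. The median ratio of the members was -0.14 (all genes -0.07), and -0.02 (all genes 0.08) without those libraries. ERCC spike-ins in place of gene totals were also used for scaling, with all aged oocytes only. The median of all genes then moved to -1.47 and that of 22 members to -1.55. On that scale 19 members were past 2-fold lower, where 84.1% of all genes were. Of the 22 members, 9 lay above and 13 below the median of all genes. The part of the 21 libraries in this shift was not tested. Vti1b alone passed 2-fold when CPM were averaged over oocytes (all genes 4.83%), with a pseudocount of 0.1 CPM (3.97%) and with mitochondrially encoded genes out of the total (3.96%). Intervals given with CPM are exact Poisson intervals at 95% confidence and cover counting error only. The binomial intervals, also at 95%, treat the oocytes of 1 sample as independent draws. Neither covers a spread between animals or samples.

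The highest ratios belonged to Vti1b, Napa and Stx17, all 3 of which turn negative under ERCC scaling (-0.35, -0.42 and -0.88), where all 3 stay above the median of all genes of -1.47. Vti1b was at 6.72 CPM (6.43 to 7.02) in young and 14.1 CPM (13.7 to 14.5) in aged oocytes, a log2 ratio of 0.97, or 11.0 CPM and 0.64 without the 21 libraries. Single young oocytes ran from 2.79 to 14.1 CPM (median 6.76) and the other 38 aged from 6.05 to 20.9 CPM (median 10.4), so the ranges overlap. Part of Vti1b's exons overlaps Arg2 on the opposite strand. Napa stood at 4.21 CPM in young and 8.08 CPM in aged oocytes (0.80), or 6.72 CPM (0.57) without the 21 libraries. It was lowest at 0 and highest at 12.3 CPM among young oocytes, and ran from 1.73 to 22.4 CPM in the 38. Stx17 stood at 49.5 CPM in young and 73.7 CPM in aged oocytes (0.56), or 67.8 CPM (0.45) without them. Its young oocytes spanned 20.8 to 68.6 CPM and the 38 aged 46.4 to 98.1 CPM, with the aged median of 66.5 near the top of the young range.

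The lowest ratios with all oocytes were those of Nsf, Sec22c and Vti1a, at -0.72, -0.67 and -0.56 relative to the median of all genes. Under ERCC scaling, which put all 22 counted members below 0, they were at -0.78, -0.58 and -0.60 relative to that median. Nsf was at 414 CPM (412 to 416) in young and 240 CPM (238 to 241) in aged oocytes, a log2 ratio of -0.79, which became 319.9 CPM and -0.37 without the 21 libraries. Young oocytes ran from 222 to 676 CPM (median 405) and the 38 aged from 165 to 493 CPM (median 314). Sec22c was at 23.1 CPM in young and 13.4 CPM in aged oocytes (-0.74), or 15.6 CPM (-0.54) without those libraries, when it was the lowest of the 23. Vti1a was at 93.0 CPM in young and 59.7 CPM in aged oocytes (-0.63), or 78.1 CPM (-0.25) without those libraries. Vamp4, a trans-Golgi R-SNARE, was at 38.1 CPM in young and 27.9 CPM in the 38 aged oocytes (-0.44), and so joined Sec22c and Nsf as the lowest 3 there, while with all oocytes it was at 33.1 CPM (-0.20). Vamp3, the gene that fell in siPlat, was at 75.8 CPM in young and 51.7 CPM in aged oocytes (-0.54), or 66.1 CPM (-0.19).

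**Figure D4:**
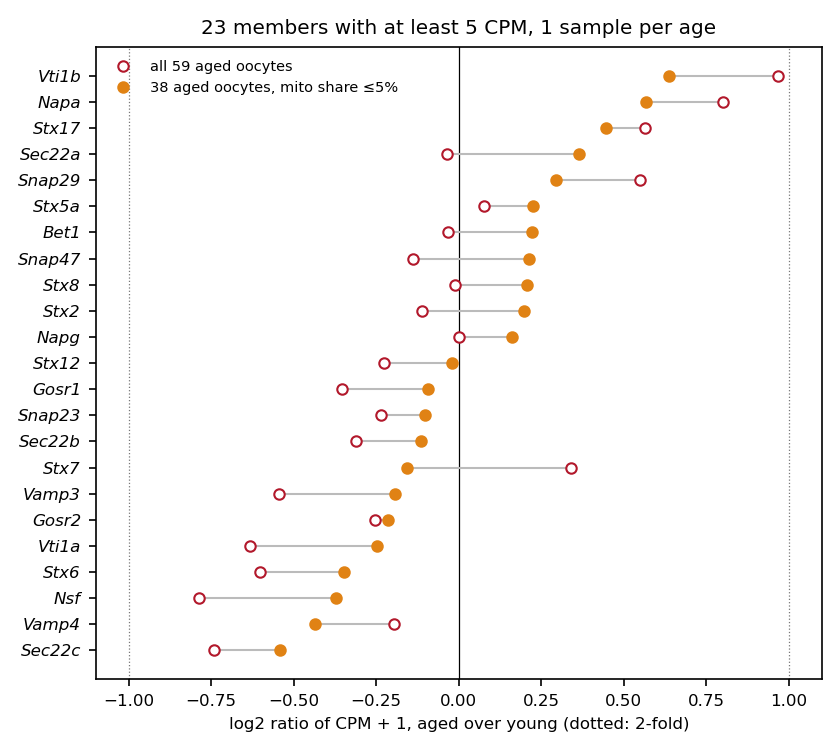
Log2 ratio of CPM + 1, aged over young, for the 23 members with at least 5 CPM, with all 59 aged oocytes (open circles) and with the 38 whose mitochondrial share was at most 5% (filled). Every point lies within the dotted lines at 2-fold on this scale, the ratios with all 59 aged oocytes lie below 0 under ERCC scaling, and Stx7 and Sec22a change side of 0 between the settings, as do Bet1, Stx2, Stx8, Snap47 and Napg.

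Within the aged sample, scaled to gene totals only, members differed widely in the 21 libraries of high mitochondrial share. These libraries were picked by that share, which was 6.78 to 61.6% (median 32.8%). The gene totals include mitochondrially encoded counts, so a high share by itself lowers the CPM of all other genes. How much of the differences below this makes was not tested. Of 25 members with at least 5 CPM, 10 were at least 2-fold lower there than in the other 38 libraries and 1 at least 2-fold higher, against 48.6% and 8.06% of 8087 genes; the medians were -0.92 and -0.94 on the log2 scale. Nsf was at 22.1 against 319.9 CPM, Sec22a at 6.68 against 74.8 CPM, Vti1a at 9.68 against 78.1 CPM and Vamp3 at 12.6 against 66.1 CPM. No oocyte of the 21 reached the lowest of the 38 for Nsf, where the highest was 62.9 CPM and the lowest of the others 165 CPM. The same separation held for Vamp3 (36.2 and 39.5 CPM), Vti1a (33.1 and 49.97 CPM) and Sec22a (21.9 and 42.8 CPM). How many of all genes separated in this way was not counted, so it cannot be called particular to these members. Stx7 was the member that was higher, at 144 against 56.7 CPM, with a range of 6.28 to 331 CPM in the 21. Snap29 stood at 45.2 against 26.0 CPM and Vti1b at 22.5 against 11.0 CPM, while Gosr2 was at 61.7 against 68.8 CPM. The sum of all members per oocyte was 142 to 1341 CPM (median 734) in the 21, 1318 to 1639 CPM (median 1488) in the 38 and 1264 to 1861 CPM (median 1556) in young oocytes.

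**Figure D5:**
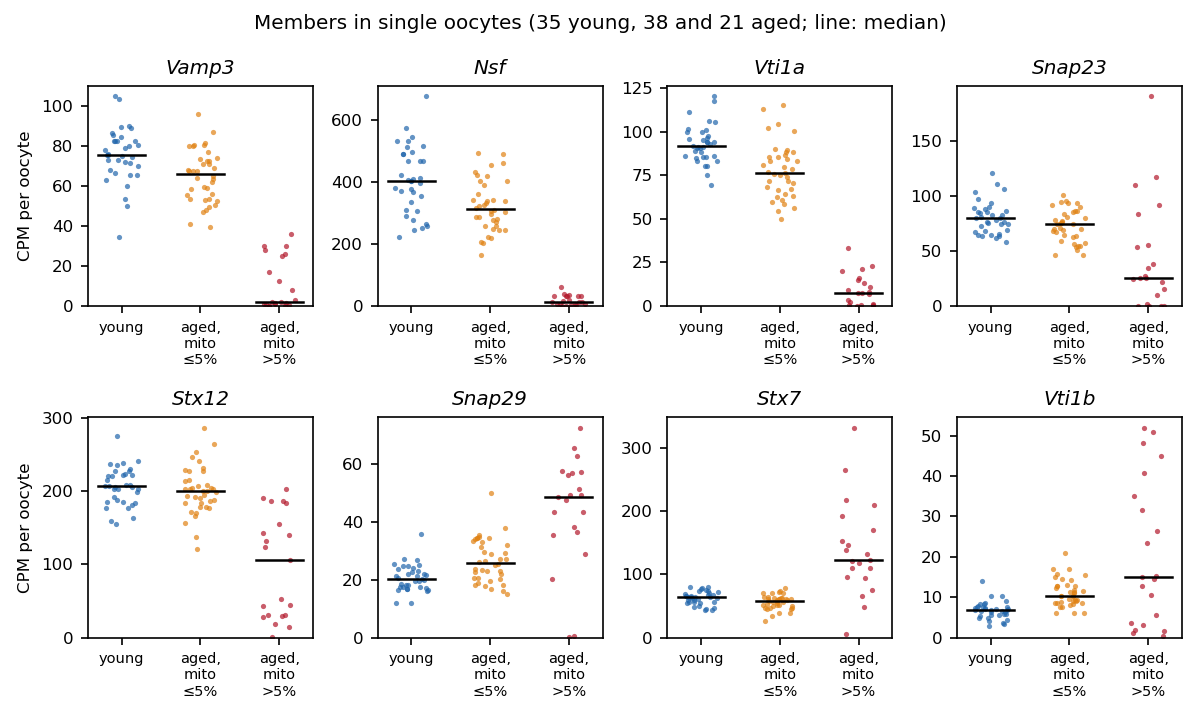
CPM of 8 members in each single oocyte of the young sample (35) and of the aged sample at or below (38) and above (21) a mitochondrial share of 5%; the bars are medians. Vamp3, Nsf and Vti1a have medians of 2.15, 14.2 and 7.65 CPM in the 21 libraries, where Snap29 and Stx7 have medians of 48.6 and 122 CPM.

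The members also varied from oocyte to oocyte within the young sample. The coefficient of variation of CPM had a median of 22.3% over the 22 members with a mean of at least 5 CPM and of 27.1% over 8230 such genes. Vti1a (11.7%) and Stx12 (12.5%) varied least, and Sec22c the most (35.0%). Stx12 ran from 155 to 275 CPM and Snap23 from 58.4 to 121 CPM, and all 35 oocytes had a count of both. Vamp3 ran from 34.5 to 105 CPM (18.1%).

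Levels in the siCtrl pools and in untreated young oocytes come from separate tables and were not tested. They were within 2-fold of each other for 10 of 25 members with at least 5 CPM, higher in siCtrl for 7 and lower for 8. The share of all genes was not counted, so these counts are not a result about the members. Pools were scaled with TMM over the tested genes, and single oocytes by gene totals. Bet1 was at 90.5 and 77.5 CPM, Sec22b at 66.3 and 64.0 CPM and Snap23 at 106 and 79.9 CPM. Bet1l, whose exons overlap Ric8a and Gm45785, was 11.3-fold higher in the pools, at 13.8 against 1.22 CPM. Gosr2 was at 8.91 CPM in siCtrl and at 79.98 CPM in young oocytes, a ratio of 0.111.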

How the data were processed

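Polyadenylated RNA of MII oocytes was measured in 4 pools and 94 single oocytes. Raw counts per gene, in 2 separate tables without normalisation, were deposited; STAR 2.7.10b, HTSeq 0.13.5 and mm10 are named per the submitters' processing notes, with no role. Overlapping genes cannot be told apart, since annotation and strand setting are not given in the sources used here. Smart-seq2 amplifies by PCR without stated molecular identifiers.

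Pools were tested with edgeR 4.0.16 in R 4.3.3 (robust quasi-likelihood, TMM, filter at a minimum count of 10 and total of 15, no covariate, Benjamini-Hochberg over 11136 genes), and checked on simulated data; DESeq2 1.42.0 and limma 3.58.1 were alternatives. The SE is the log2 fold change divided by the square root of F. Single-oocyte counts, without ERCC rows, were summed per age and scaled to CPM by gene totals. Values of 1 member are not reported here. The members, roles and lists were chosen with earlier results of these data known. Members of exocytosis and disassembly and called members were named with every value; for age, the 3 highest and 3 lowest ratios; other members' values were added after they were seen.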

Additional observations from a re-analysis of the deposited data

How the results depend on the processing

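The number of called genes was 394 by edgeR, 678 by DESeq2 and 157 to 1145 when 1 library was left out (157 and 160 without siCtrl 1 and 2, 713 and 1145 without siPlat 1 and 2). The number of called members was 2 by edgeR, 6 by DESeq2, 4 with no expression filter and 1 to 7 when 1 library was left out; Vamp3 was called in each of these and Vti1a in each except without siCtrl 1 or 2. The labels link same-numbered pools by a number only, and whether they shared a batch or day is not known. Their deviations from the group means had a correlation of -0.06 across 11136 genes, which cannot settle this. With the replicate block edgeR called 273 genes (158 higher, 115 lower) and the same 2 members. Some log2 fold changes changed sign, none of them called. Sec22b (-0.01) was at 0.00656 by DESeq2 and 0.00649 with RLE size factors, and with 1 library left out the log2 fold changes ran from -0.24 to 0.58 for Gosr2, -0.89 to 0.14 for Napa, -0.15 to 0.13 for Sec22b, -0.25 to 0.12 for Snap29, -0.23 to 0.15 for Stx17, -0.39 to 0.65 for Stx19, -2.73 to 0.67 for Stx1a and -0.42 to 1.46 for Vamp9. With age, the number of members past 2-fold was 0, and 1 (Vti1b) with the mean over oocytes, with a pseudocount of 0.1 CPM and with mitochondrially encoded genes out of the total; it was 19 with ERCC scaling. The median log2 ratio of the members was -0.14, and -0.0214 without oocytes above 5% mitochondrial share, -0.0593 with the median over oocytes, -0.22 with the mean over oocytes, -0.0117 for every member with a count, -1.55 with ERCC scaling, -0.0238 without mitochondrially encoded genes in the total and -0.25 with thinned oocytes. The cause of these shifts was not tested. With 2 pools per group and 1 sample per age, no spread between animals could be measured.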
